A study of Homo sapiens with 12 samples.

Results

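The integrated stress response was followed through 10 genes of the 58735 in the deposited expression table. They are the eIF2 kinases EIF2AK3 and EIF2AK4, the basic leucine zipper transcription factors ATF4, ATF5, CEBPG, ATF3 and DDIT3, the stress cofactor NUPR1, and the feedback genes TRIB3 and PPP1R15A. The members were chosen by name, with the rise of ATF3, DDIT3 and targets of ATF4 in Huh7 already known from these libraries. Their changes in Huh7 are therefore given as a description and without p-values, and values in HepG2 are no independent support. Transcripts were sequenced in 12 libraries labelled as 2 human liver tumour lines, Huh7, known as a hepatocellular carcinoma line, and HepG2, known as a hepatoblastoma line. The hepatocyte markers go against those labels, as given below, so the identity of the cells is in doubt and the line names are the labels' names throughout. Each line was left untreated or received geniposide, a plant iridoid glycoside, with 3 libraries in each of the 4 groups and collection at 48 h. The labels name no transgene, deletion or dose. By the title the study concerns ferroptosis, an iron-dependent death by lipid peroxidation, and the oxidase DUOX1.

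In the integrated stress response, 4 kinases (EIF2AK1 to EIF2AK4) sense haem shortage, viral RNA, misfolded protein in the endoplasmic reticulum or amino acid shortage, and phosphorylate the translation factor eIF2. Most translation then falls, while upstream reading frames let ribosomes make more ATF4 and ATF5 protein from existing transcripts. ATF4 pairs with C/EBP proteins such as CEBPG and drives genes of amino acid supply, tRNA charging, redox defence and cell fate, among them ATF3, DDIT3, TRIB3 and PPP1R15A. A transcript level says nothing about phosphorylation of eIF2 or about the amount of protein.

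The promoters show where some of these genes carry the letters that ATF4 and C/EBP pairs read. RefSeq promoters (GRCh38.p14, from 250 bases before to 50 after each transcript start) were searched on both strands for TGATGNAA, the composite element of ATF4 and C/EBP, and for TGACGTCA, the cyclic AMP response element that ATF factors bind. No base can belong to a match of both patterns at the same time. The composite pattern lay in 3.62% of 35116 promoters and the cyclic AMP pattern in 1.85%. Of the 9 members with an entry, ATF3 and CEBPG held the composite pattern and PPP1R15A the cyclic AMP pattern, in capitals in these 68-base stretches.
ATF3, chr1:212565186-212565253, plus strand: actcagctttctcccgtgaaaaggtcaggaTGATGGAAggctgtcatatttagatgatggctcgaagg
CEBPG, chr19:33374041-33374108, plus strand: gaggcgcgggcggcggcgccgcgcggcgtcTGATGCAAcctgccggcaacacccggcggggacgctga
PPP1R15A, chr19:48872333-48872400, plus strand: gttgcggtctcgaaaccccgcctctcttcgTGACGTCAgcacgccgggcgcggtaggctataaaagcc
The matches end 184, 35 and 51 bases before the respective transcript start. The stretch of ATF3 lies upstream of the gene as annotated in GENCODE 29, that of CEBPG overlaps no exon there, and the last bases of the PPP1R15A stretch run into its first exon.

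A textbook list of 47 targets of ATF4, used below as the readout of the pathway, had promoter entries for 35 genes, and 15 of these (42.9%) held the composite pattern, against 4.46% of all 27305 genes in the table. The next 4 stretches are shown because they belong to the targets with the largest changes in Huh7 among those whose match lies before the start. The pattern stands in capitals and reads TTGCATCA where it lies on the opposite strand.
CHAC1, chr15:40953251-40953280, plus strand: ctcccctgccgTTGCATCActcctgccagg
ASNS, chr7:97872458-97872487, minus strand: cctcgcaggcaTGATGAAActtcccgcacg
SLC1A4, chr2:64989381-64989410, plus strand: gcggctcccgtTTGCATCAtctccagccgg
HERPUD1, chr16:56931955-56931984, plus strand: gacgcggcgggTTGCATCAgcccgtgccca
A match describes these letters only and was not read as a bound site.

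Levels are the deposited FPKM, fragment numbers relative to gene length and library depth, which allow genes to be compared. The libraries held 15056655 to 17211659 fragments in genes. Changes are limma differences in log2(FPKM + 1) ± SE, geniposide minus untreated, and a gene was called at an adjusted p under 0.05 over 15518 tested genes. All 10 members passed the filter of 1 FPKM in 3 libraries. Of 9 hepatocyte markers 0 reached 1 FPKM in any group, with summed levels of 0.198 to 0.527 FPKM, and ALB, APOB, TTR and AFP were listed at 0 in both HepG2-labelled groups. In HepG2-labelled libraries the summed fibroblast markers (5 of 6 present) went from 71.9 to 73.4 FPKM untreated to 104 to 107 FPKM treated. Most of that rise was LUM (35.4 to 59.5 FPKM in the means), while PDGFRB went from 4.33 to 2.09 and COL1A1 from 11.9 to 10.3 FPKM. The cholangiocyte sum went from 275 to 288 down to 72.4 to 75.9 FPKM and was nearly all KRT7 (279 to 72.9 FPKM in the means), while SOX9 went from 0.257 to 0.590 FPKM. Both sums stayed at or below 7.44 FPKM in the Huh7-labelled libraries. The part of these markers in the results was not tested, and in bulk RNA fewer cells of a type and less RNA per cell cannot be told apart. Treated Huh7 library 3 stood apart from libraries 1 and 2 of its group, with a chi-square per degree of freedom of 43.4 and 44.9 over gene counts, against 2.19 to 6.58 for all other pairs within groups. Ribosomal protein genes took 5.02% of its fragments, against 5.90% and 6.31% in the other 2.

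In Huh7-labelled libraries geniposide went with higher ATF3, DDIT3, PPP1R15A, TRIB3, CEBPG, NUPR1 and EIF2AK3 transcripts and with lower EIF2AK4, while ATF4 and ATF5 were not called. Of the 10 members 7 were called higher and 1 lower, where 16.4% and 18.1% of all tested genes were called higher and lower. The same 8 had treated values entirely above or below the untreated ones, as had 43.9% of all genes. The median change of the members was 1.203, against 0 for all tested genes. In HepG2-labelled libraries DDIT3 and PPP1R15A rose and EIF2AK4 fell, where 21% of all tested genes were called higher and 21.5% lower, and the median change of the members was 0.03. Treated and untreated values did not overlap for 4 members that were higher and 4 that were lower, where 58.9% of all genes did not overlap. The count of 3 called members in HepG2 depended on the shared estimate of spread. With HepG2 fitted alone the changes were the same and 7 members were called, and without treated Huh7 library 3 also 7.

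**Figure D1:**
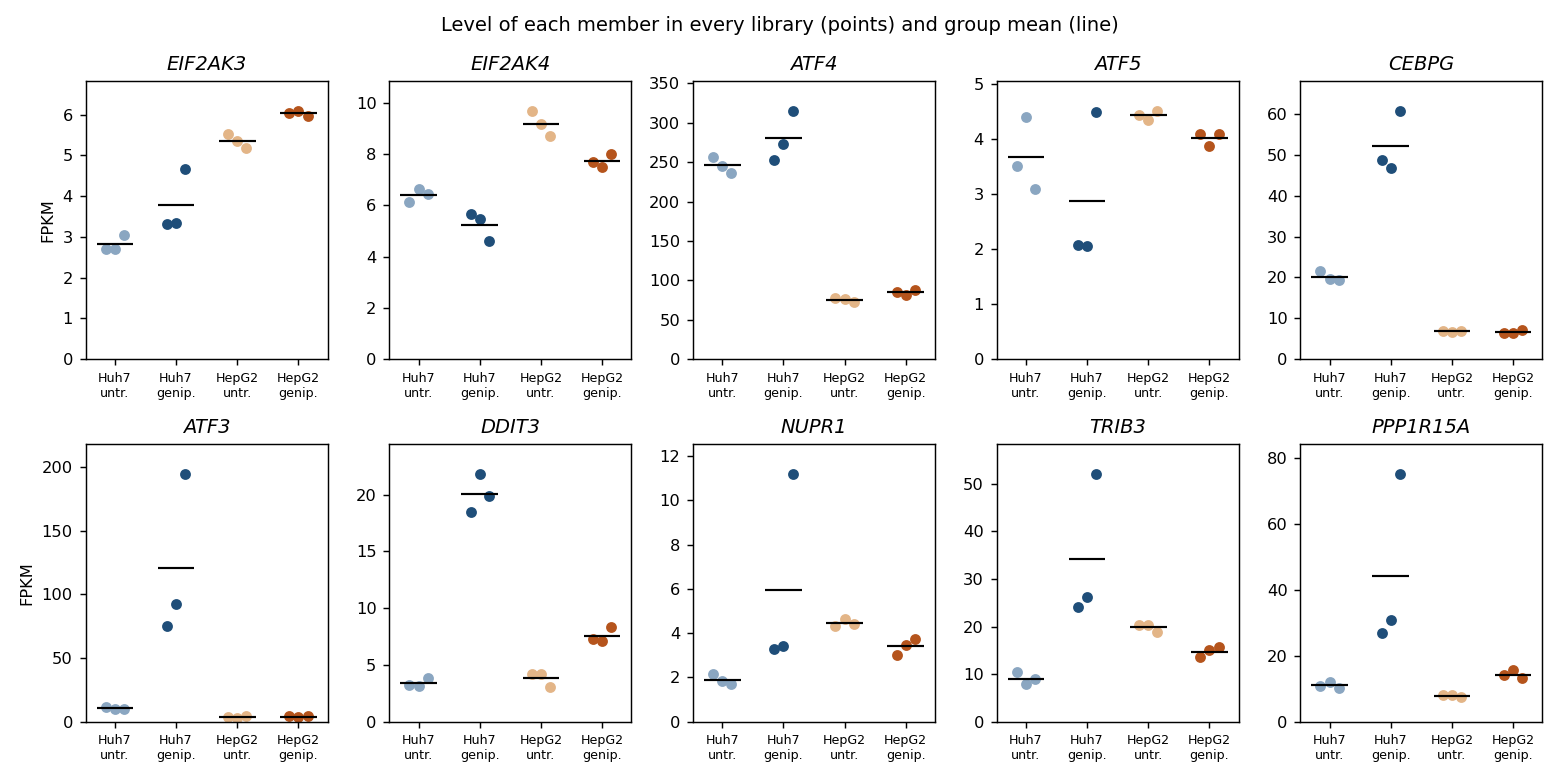
FPKM of the 10 members in each of the 12 libraries (points, 3 per group) with the group mean (line); each panel has its own axis from 0. ATF3, TRIB3, PPP1R15A and NUPR1 are highest in treated Huh7 library 3, while ATF4 stays 3.26-fold higher in untreated Huh7 than in untreated HepG2.

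EIF2AK3 encodes PERK, the kinase in the membrane of the endoplasmic reticulum that responds to unfolded protein (chromosome 2, 88556741 to 88627576, minus strand, hg38). In Huh7 its level was 2.71, 2.71 and 3.06 FPKM untreated and 3.31, 3.35 and 4.67 FPKM treated. All treated libraries were above all untreated ones, and library 3 was the highest. The change was 0.31 ± 0.09, and 0.18 without treated library 3, and its call was lost without untreated library 1 or 2 and without the filter on low values. In HepG2 the level was 5.52, 5.36 and 5.19 FPKM untreated and 6.04, 6.09 and 5.97 FPKM treated, again without overlap. This change of 0.15 ± 0.09 was not called (adjusted p = 0.248), but it was called with HepG2 fitted alone (adjusted p = 0.0238).

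EIF2AK4 encodes GCN2, the kinase that senses uncharged tRNA when amino acids run short (chromosome 15, 39934146 to 40035591, plus strand). In Huh7 it stood at 6.15, 6.64 and 6.44 FPKM untreated and at 5.67, 5.48 and 4.59 FPKM treated. In HepG2 it stood at 9.69, 9.16 and 8.71 FPKM untreated and at 7.70, 7.499 and 7.99 FPKM treated. EIF2AK4 was the member that fell in both lines, with every treated library below every untreated one. The change was -0.25 ± 0.07 in Huh7 and -0.22 ± 0.07 in HepG2 (adjusted p = 0.0256). Both calls were lost when FPKM was rescaled to a common total (TPM), where the HepG2 adjusted p was 0.104. The Huh7 call was also lost with voom on fragments recovered from FPKM and without untreated Huh7 library 2 or 3. The HepG2 call was also lost when untreated library 1 or 2 or treated library 1 or 2 of that line was left out (adjusted p = 0.0627 to 0.0967).

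Of the remaining eIF2 kinases, the haem-regulated EIF2AK1 fell in Huh7 from 35.8 ± 0.85 to 29.96 ± 3.06 FPKM (SD, n = 3), and the double-stranded RNA sensor EIF2AK2 was called in neither line, at 8.45 to 11.5 FPKM in the group means. Of 5 regulators of the kinases, OMA1, the mitochondrial protease that starts the DELE1 signal to EIF2AK1, fell in Huh7 from 8.81 ± 0.70 to 7.15 ± 0.40 FPKM. GCN1, the ribosome-bound activator of GCN2, fell in HepG2 from 55.2 ± 1.14 to 37.3 ± 4.02 FPKM (limma change -0.56 ± 0.07, adjusted p = 8.49e-05). These were the only regulators called, 1 of 5 lower in each line. Those counts are near the 18.1% and 21.5% of all tested genes called lower. Among the 8 subunits of eIF2 and its exchange factor eIF2B, 2 were called lower in Huh7 (EIF2B1 and EIF2B5) and 5 were called lower in HepG2, where 18.1% and 21.5% of all tested genes were. The count of 2 in Huh7 is near that share. In HepG2 the kinase substrate EIF2S1 went from 25.4 ± 0.34 to 15.9 ± 0.77 FPKM (adjusted p = 0.00779) and EIF2B3 from 11.3 ± 0.67 to 5.78 ± 0.45 FPKM (adjusted p = 0.000125).

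ATF4, the central transcription factor of the response, was the most abundant member in all 12 libraries (chromosome 22, 39519695 to 39522685, plus strand). In Huh7 it measured 257, 245 and 236 FPKM untreated and 252, 274 and 315 FPKM treated. In HepG2 it measured 77.5, 76.0 and 72.7 FPKM untreated and 84.6, 81.7 and 88.2 FPKM treated. The treated values overlapped the untreated ones in Huh7 and lay just above them in HepG2, with ratios of the means of 1.14 and 1.125. The changes of 0.18 ± 0.08 and 0.17 ± 0.08 were not called (HepG2 adjusted p = 0.101). With TPM scaling they were 0.26 and 0.24 and called in both lines. With voom the Huh7 change was 0.26 and called, and with HepG2 fitted alone the HepG2 change was called (adjusted p = 0.0170). Without treated Huh7 library 3 the Huh7 change was 0.09. The processed pseudogene ATF4P3, whose sequence resembles ATF4, was listed at 0.446 to 2.30 FPKM and 3 other ATF4 pseudogenes at up to 0.0637 FPKM. How the counting split fragments between ATF4 and these copies was not tested.

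ATF5, a relative of ATF4 that is also under translational control, stood at 3.52, 4.40 and 3.09 FPKM in untreated and 2.07, 2.05 and 4.50 FPKM in treated Huh7 libraries (chromosome 19, 49928702 to 49933935, plus strand). Treated libraries 1 and 2 were below every untreated library and library 3 was above them all. The change was -0.32 ± 0.19 and not called. Without library 3 it was -0.60 and called. In HepG2 it stood at 4.44, 4.35 and 4.51 FPKM untreated and 4.10, 3.87 and 4.09 FPKM treated, a change of -0.11 ± 0.19 (adjusted p = 0.696). This change was not called, though every treated HepG2 library was below every untreated one. Its SE rests on the spread shared by both lines, treated Huh7 included, so the missing call is no sign of an unchanged level. ATF5 shares 626 exon bases, 21.2% of its length, with NUP62 on the opposite strand, and the library protocol marks no strand. NUP62 went from 23.7 to 19.7 FPKM in Huh7 and from 20.4 to 14.9 FPKM in HepG2 (adjusted p = 0.000127), and its part in the ATF5 values was not tested.

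CEBPG, a C/EBP protein that forms heterodimers with ATF4, measured 21.5, 19.7 and 19.3 FPKM in untreated and 48.9, 46.9 and 60.9 FPKM in treated Huh7 libraries (chromosome 19, 33373330 to 33382686, plus strand). All treated libraries were at least 2.32 times the untreated mean, and libraries 1 and 2 were near each other. The change was 1.32 ± 0.09, a ratio of the means of 2.59, and 1.21 without library 3. In HepG2 CEBPG measured 6.90, 6.63 and 6.99 FPKM untreated and 6.26, 6.31 and 7.20 FPKM treated. The HepG2 groups overlapped, and the change of -0.05 ± 0.09 was not called (adjusted p = 0.727, 95% interval -0.25 to 0.15).

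ATF3, a stress-inducible repressor and activator that is a target of ATF4, had the largest change of the 10 members (chromosome 1, 212565334 to 212620777, plus strand). In Huh7 it measured 11.8, 10.04 and 9.94 FPKM untreated and 75.6, 92.8 and 195 FPKM treated. The treated libraries reached 7.14, 8.76 and 18.4 times the untreated mean, so library 3 was well above the other 2 but each was far from the untreated range. The change was 3.28 ± 0.27, a ratio of the means of 11.4, and 2.87 without library 3. In HepG2 ATF3 measured 3.44, 3.16 and 4.30 FPKM untreated and 4.33, 3.55 and 4.17 FPKM treated. These groups overlapped, and the change of 0.12 ± 0.27 was not called (adjusted p = 0.785, 95% interval -0.48 to 0.72).

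DDIT3 encodes CHOP, a C/EBP-family factor linked to cell death under prolonged stress (chromosome 12, 57516588 to 57521737, minus strand). In Huh7 it measured 3.27, 3.14 and 3.83 FPKM untreated and 18.5, 21.9 and 19.9 FPKM treated. Unlike ATF3, its treated values were close together, and library 3 lay between the other 2. The change was 2.26 ± 0.11, a ratio of the means of 5.89, and 2.26 without library 3. In HepG2 it measured 4.22, 4.23 and 3.08 FPKM untreated and 7.32, 7.08 and 8.31 FPKM treated, which rest on 58 to 84 and 131 to 170 fragments. Every treated library was above every untreated one, and DDIT3 rose by 0.83 ± 0.11 (adjusted p = 0.000141), a ratio of the means of 1.97.

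DDIT3 shares 355 exon bases, 27.2% of its length, with the methionyl-tRNA synthetase gene MARS on the opposite strand, and 58 bases with MBD6. MARS moved with DDIT3 in Huh7, from 36.0 ± 0.43 to 54.0 ± 13.6 FPKM, and against it in HepG2, from 26.0 ± 0.88 to 10.3 ± 0.41 FPKM (adjusted p = 2.62e-05). MBD6 had group means of 7.90 to 10.5 FPKM. How many fragments of either were counted for DDIT3 was not tested.

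NUPR1, a small chromatin-binding stress protein induced by ATF4, was among the 4 lowest of the 10 in all libraries (chromosome 16, 28532708 to 28539174, minus strand). In Huh7 it measured 2.17, 1.82 and 1.68 FPKM untreated and 3.27, 3.40 and 11.2 FPKM treated. Treated libraries 1 and 2 were 1.73 and 1.80 times the untreated mean and library 3 was 5.93 times. The change of 1.09 ± 0.32 was 0.59 without library 3, and its call was lost without untreated library 2 or 3 and without the filter on low values. In HepG2 NUPR1 measured 4.34, 4.62 and 4.42 FPKM untreated and 3.01, 3.47 and 3.73 FPKM treated. Here every treated library was below every untreated one. The change of -0.31 ± 0.32 was not called (adjusted p = 0.480), but it was with HepG2 fitted alone (adjusted p = 0.0193).

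TRIB3, a pseudokinase that binds ATF4 and damps its activity, measured 10.4, 7.89 and 8.95 FPKM in untreated and 24.1, 26.3 and 52.1 FPKM in treated Huh7 libraries (chromosome 20, 362835 to 397559, plus strand). The treated values were 2.66 to 5.75 times the untreated mean, with library 3 the highest. The change was 1.73 ± 0.23 and 1.38 without library 3. In HepG2 TRIB3 measured 20.4, 20.4 and 18.9 FPKM untreated and 13.5, 15.1 and 15.6 FPKM treated. The direction in HepG2 was the opposite, with no overlap. The change of -0.41 ± 0.23 was not called in the joint fit (adjusted p = 0.177) and was called with HepG2 fitted alone (adjusted p = 0.00384).

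PPP1R15A encodes GADD34, which brings protein phosphatase 1 to eIF2 and so restores translation (chromosome 19, 48872392 to 48876057, plus strand). In Huh7 it measured 10.96, 11.9 and 10.3 FPKM untreated and 26.9, 30.8 and 75.2 FPKM treated. In HepG2 it measured 8.11, 8.03 and 7.39 FPKM untreated and 14.1, 15.5 and 13.2 FPKM treated. PPP1R15A and DDIT3 were the members called higher in both lines. The change was 1.76 ± 0.29 in Huh7, and 1.31 without library 3, and 0.79 ± 0.29 in HepG2 (adjusted p = 0.0478, ratio of the means 1.82). The HepG2 call was lost without the filter on low values (adjusted p = 0.111), with voom on fragments recovered from FPKM (adjusted p = 0.0761), and when any untreated library or any treated HepG2 library was left out (adjusted p = 0.0628 to 0.124). With treated Huh7 library 3 left out the adjusted p was 1.26e-05.

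The rest of the eIF2 phosphatase was read from 4 genes. The catalytic subunit PPP1CA fell in HepG2 from 65.7 ± 3.66 to 46.4 ± 3.78 FPKM (limma adjusted p = 0.000439). It was the 1 gene of the 4 called in HepG2, a count near the 21.5% of all tested genes called lower. In Huh7 0 of the 4 were called. PPP1R15B, the constitutive partner of PPP1R15A, stood at 26.9 ± 0.66 and 36.1 ± 11.8 FPKM in untreated and treated Huh7. In HepG2 it stood at 45.0 ± 0.97 and 35.3 ± 0.26 FPKM, and it was called in neither line. The HepG2 change of PPP1R15B was -0.34 ± 0.16, and its SE rests on the spread shared by both lines, treated Huh7 included. Its missing call in HepG2 is therefore no sign of an unchanged level.

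**Figure D2:**
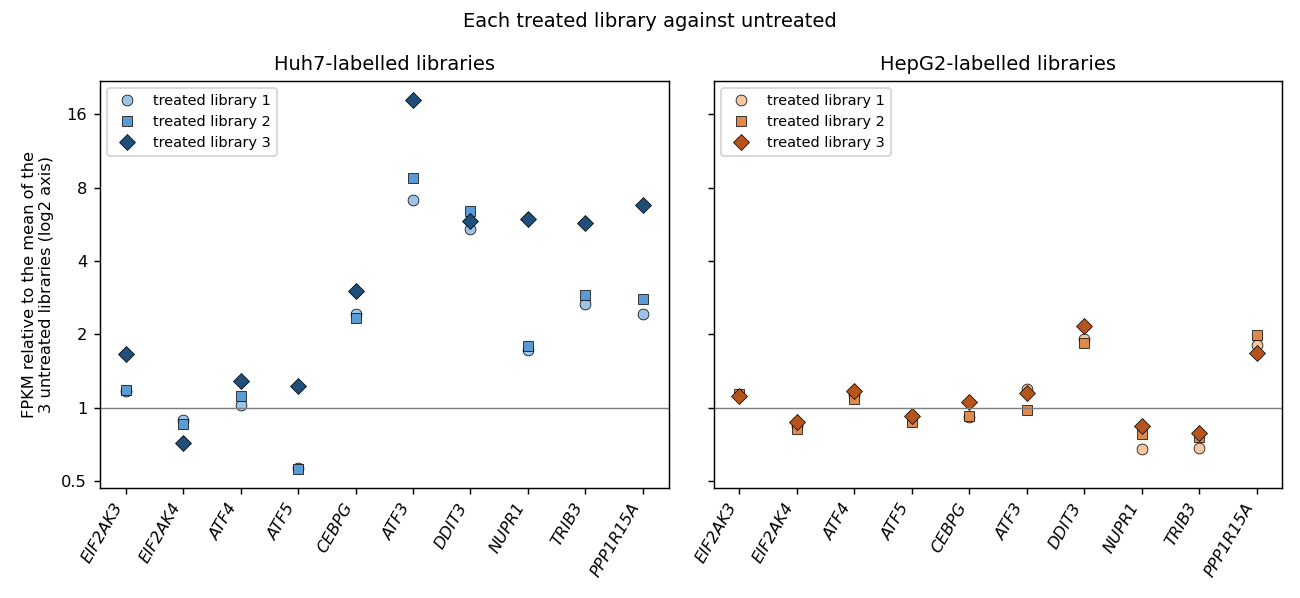
FPKM of each treated library divided by the mean of the 3 untreated libraries of its line, on a log2 axis, for the 10 members in Huh7-labelled (left) and HepG2-labelled libraries (right). In Huh7, library 3 (diamonds) reaches 18.4 for ATF3 against 7.14 and 8.76 in the other 2, but lies between them for DDIT3.

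Several changes in Huh7 were larger with treated library 3 than without it, and all 10 members kept the direction of their change without it. Relative to the mean of treated libraries 1 and 2 it was 3.36 times as high for NUPR1, 2.61 for PPP1R15A, 2.32 for ATF3, 2.19 for ATF5 and 2.07 for TRIB3. It was 1.40 times as high for EIF2AK3, 1.27 for CEBPG and 1.199 for ATF4, and 0.987 and 0.824 times for DDIT3 and EIF2AK4. In HepG2 the same ratio for treated library 3 was between 0.891 and 1.15 for the 10 members. Without treated Huh7 library 3, 7 members were called higher and 2 lower in Huh7, with ATF5 added to the lower ones.

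The change in HepG2 minus the change in Huh7 holds the Huh7 change by which the members were picked, so it is a description, given with its interval, and its calls support nothing about the members. It was called for 5 of the 10, all lower in HepG2, where 27.8% of all tested genes were called in either direction. It was -3.16 for ATF3 (95% interval -4.01 to -2.31), -2.14 for TRIB3 (-2.85 to -1.43) and -1.43 for DDIT3 (-1.77 to -1.09). For the small chromatin protein NUPR1 it was -1.40 (-2.39 to -0.41), and for CEBPG -1.37 (-1.66 to -1.08). The NUPR1 call was lost without the filter on low values and when any of the 6 untreated or 3 treated HepG2 libraries was left out, and the difference was -0.90 without treated Huh7 library 3. For PPP1R15A the difference was -0.97 (-1.87 to -0.07) and not called, but without treated Huh7 library 3 it was -0.52 and called. For ATF4 it was -0.01 (-0.25 to 0.22), for EIF2AK4 0.03 (-0.19 to 0.25), for EIF2AK3 -0.16 (-0.46 to 0.13) and for ATF5 0.20 (-0.40 to 0.81), intervals that hold 0.

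**Figure D3:**
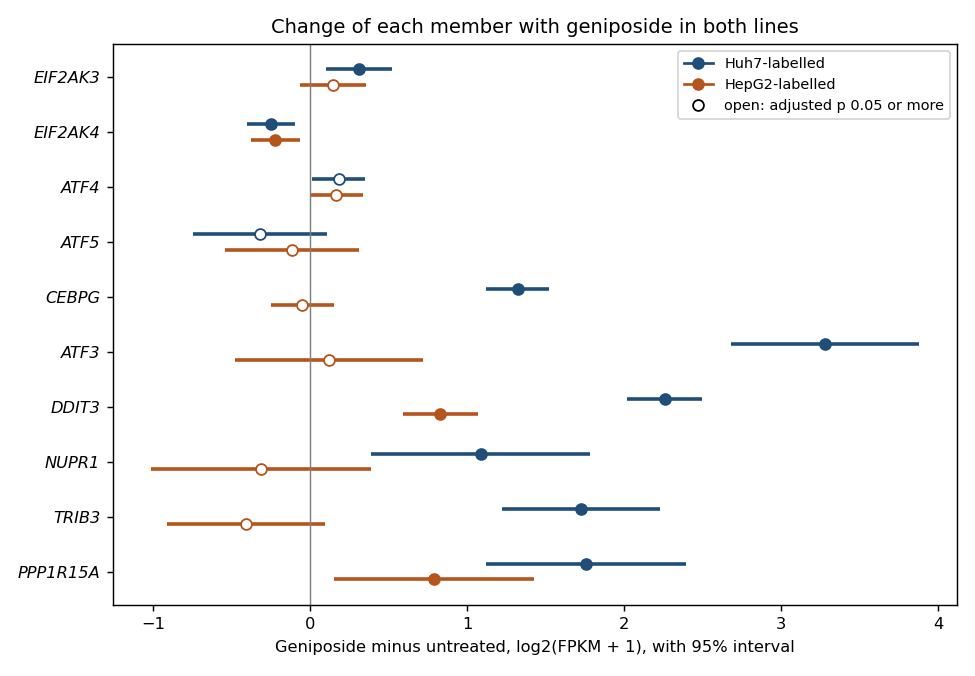
Change with geniposide in log2(FPKM + 1) for each member in Huh7-labelled (blue) and HepG2-labelled (orange) libraries; bars are 95% intervals and open points are not called. The intervals of the lines lie apart for CEBPG, ATF3, DDIT3 and TRIB3, touch for NUPR1, and overlap for the kinases, ATF4, ATF5 and PPP1R15A.

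Before treatment ATF4, CEBPG and ATF3 were lower in HepG2 than in Huh7, and both kinases, TRIB3 and NUPR1 were higher. These 7 called members of 10 are near the background, since 71.8% of all tested genes were called in this comparison. ATF4 was 3.26-fold lower in HepG2 (limma change -1.69 ± 0.08, adjusted p = 4.07e-09), its partner CEBPG 2.95-fold lower (-1.43 ± 0.09, adjusted p = 8.70e-08) and its target ATF3 2.91-fold lower (-1.33 ± 0.27, adjusted p = 0.00107). EIF2AK3 was 1.90-fold higher in HepG2 (0.73 ± 0.09, adjusted p = 3.23e-05), EIF2AK4 1.43-fold (0.46 ± 0.07, adjusted p = 0.000123), TRIB3 2.20-fold (1.06 ± 0.23, adjusted p = 0.00144) and NUPR1 2.36-fold (0.92 ± 0.32, adjusted p = 0.0219). The NUPR1 call was lost with voom (adjusted p = 0.0681) and without untreated Huh7 library 2 or 3 or untreated HepG2 library 2 (adjusted p = 0.0527 to 0.0609). ATF5, DDIT3 and PPP1R15A were not called, and without treated Huh7 library 3 ATF5 and PPP1R15A were, higher and lower in HepG2 by 0.23 and -0.45, and without untreated HepG2 library 3 DDIT3 was (adjusted p = 0.0406). These folds are of deposited FPKM, which summed to 248331 to 253080 in untreated Huh7 and 301547 to 307503 in untreated HepG2 libraries. On a common total, folds higher in HepG2 are smaller and folds lower in HepG2 are larger. TPM scaling moves the median of all genes in this comparison to -0.27, and with it DDIT3 changes sign and PPP1R15A is called (-0.75, adjusted p = 0.0394).

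ATF4 ranked first among the members by FPKM in every library, and the ranks below it differed by group. In treated Huh7 libraries ATF3 was the second in all 3, while in untreated HepG2 libraries ATF3 was among the lowest 2 and TRIB3 was the second. Across the 4 groups DDIT3 ran from 3.41 ± 0.37 FPKM in untreated Huh7 and 3.84 ± 0.66 in untreated HepG2, which overlap, to 7.57 ± 0.65 in treated HepG2 and 20.1 ± 1.69 in treated Huh7. For the phosphatase partner PPP1R15A the order was untreated HepG2 (7.84 ± 0.39), untreated Huh7 (11.1 ± 0.79), treated HepG2 (14.3 ± 1.17) and treated Huh7 (44.3 ± 26.8 FPKM), and no neighbouring groups overlapped. TRIB3 ran from untreated Huh7 (9.06 ± 1.24) through treated HepG2 (14.7 ± 1.08) and untreated HepG2 (19.9 ± 0.86) to treated Huh7 (34.2 ± 15.6 FPKM), also without overlap.

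The genes that ATF4 is known to drive were taken from the same textbook list, written with earlier results of these data known, and 46 of its 47 were tested. In Huh7 37 were called higher and 2 lower, with a median change of 0.79, and in HepG2 7 were called higher and 21 lower, with a median of -0.37. With each line fitted alone 25 were called higher and 2 lower in Huh7, and 11 higher and 26 lower in HepG2. The median of all tested genes was 0 and 0.00 in the respective line, and the shares called are those given above. The HepG2 change minus the Huh7 change was called lower for 36 and higher for 3. That difference was called for 27.8% of all tested genes in either direction. It holds the Huh7 rise of ATF4 targets that was already known, so it is a description and its calls support nothing about the targets. The targets whose promoter held the composite pattern (14 tested) numbered 12 called higher in Huh7 and 9 called lower in HepG2. Those with a promoter entry and no match (20 tested) numbered 14 called higher in Huh7 and 7 called lower in HepG2. Many of the matched targets are tRNA synthetases, from a sublist in which 12 of 13 were called lower in HepG2. The contrast between matched and unmatched targets was not tested.

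**Figure D4:**
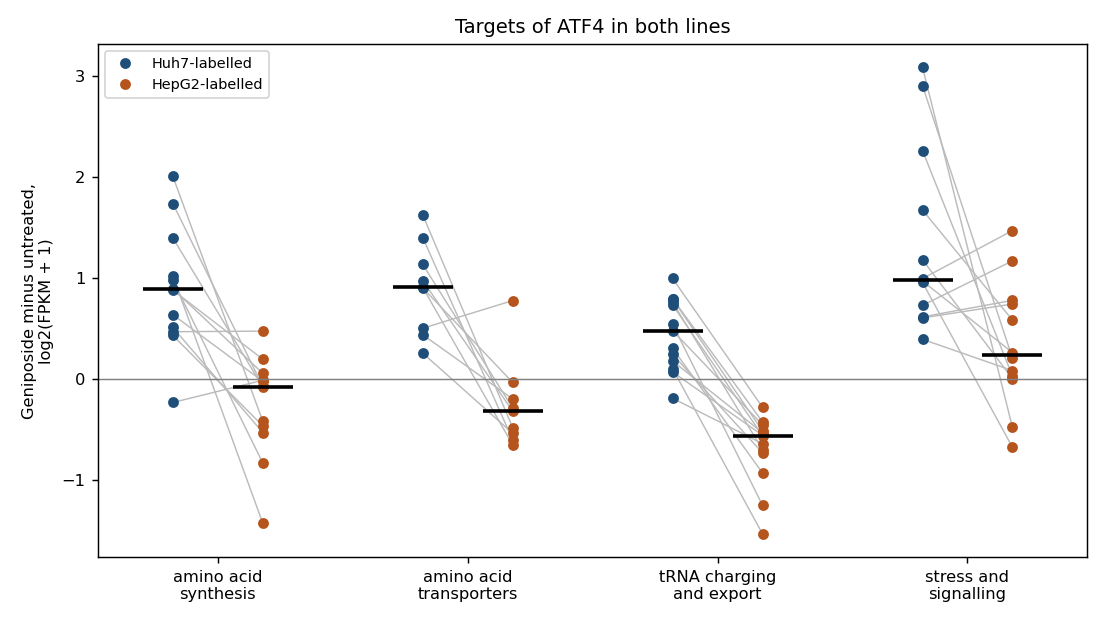
Change with geniposide in log2(FPKM + 1) of each tested target of ATF4 in Huh7-labelled (blue) and HepG2-labelled (orange) libraries, joined by a line per gene; black bars are the medians of the 4 sublists. The medians are 0.89, 0.91, 0.48 and 0.98 in Huh7 and -0.08, -0.32, -0.56 and 0.23 in HepG2.

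Of 12 genes of serine, glycine, asparagine and proline synthesis and related steps, 11 were called higher in Huh7 and ALDH18A1, named after its value was seen, lower. In Huh7 16.4% of all tested genes were called higher and 18.1% lower. Asparagine synthetase ASNS went from 1.27 ± 0.20 to 6.64 ± 1.32 FPKM, the mitochondrial carboxykinase PCK2 from 24.1 ± 2.68 to 65.2 ± 4.70 FPKM, and the cysteine-forming enzyme CTH from 16.3 ± 0.93 to 78.7 ± 53.3 FPKM. Treated library 3 held 140 FPKM of CTH, and the mean of the other 2 was 47.9 FPKM. In HepG2 2 of the 12 were called higher and 4 lower, where 21% and 21.5% of all tested genes were. The count of 2 higher is near that share. The 2 higher ones, named after their values were seen, were SHMT2 (limma change 0.47 ± 0.06) and GPT2 (0.20 ± 0.07). The 3 enzymes of serine synthesis from glycolysis all fell in HepG2. PSAT1 went from 76.0 ± 2.35 to 27.6 ± 2.55 FPKM (limma adjusted p = 5.02e-05), PSPH from 15.7 ± 0.88 to 8.41 ± 0.82 FPKM (adjusted p = 0.000132) and PHGDH from 17.7 ± 0.92 to 11.9 ± 0.35 FPKM (adjusted p = 0.000145). In Huh7 the same 3 were called higher, PSAT1 from 142 ± 5.92 to 298 ± 91.3 FPKM.

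Of 9 amino acid transporters, 7 were called higher in Huh7, where 16.4% of all tested genes were. SLC7A11, the cystine importer whose activity supports glutathione synthesis, went from 6.17 ± 0.62 to 22.3 ± 9.90 FPKM, the neutral amino acid carrier SLC1A4 from 4.36 ± 0.53 to 13.9 ± 6.17 FPKM and the glycine carrier SLC6A9 from 4.34 ± 0.17 to 10.8 ± 1.08 FPKM. Treated library 3 held 33.7 FPKM of SLC7A11 and 21.0 FPKM of SLC1A4, against means of 16.6 and 10.3 FPKM in the other 2. In HepG2 1 was called higher and 4 lower, where 21% and 21.5% of all tested genes were. The count of 1 higher is below that share. SLC3A2, the heavy chain that SLC7A11 pairs with, fell from 142 ± 5.08 to 89.8 ± 3.01 FPKM (limma adjusted p = 0.0341) and SLC1A4 from 5.94 ± 0.35 to 3.56 ± 0.31 FPKM (adjusted p = 0.0404), while the glutamine carrier SLC38A2 rose from 106 ± 2.93 to 183 ± 0.48 FPKM (adjusted p = 0.00832).

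The 13 genes of tRNA charging and export separated the lines most evenly. In Huh7 8 were called higher and EPRS, named after its value was seen, lower, where 16.4% and 18.1% of all tested genes were. In HepG2 12 were called lower, where 21.5% of all tested genes were. The HepG2 change minus the Huh7 change was called lower for all 13, and for 27.8% of all tested genes in either direction. Here too that difference holds the Huh7 rise already known and is a description only. The seryl, alanyl and cysteinyl synthetases rose in Huh7, SARS from 58.2 ± 2.45 to 123 ± 50.7 FPKM, AARS from 87.9 ± 3.59 to 154 ± 23.4 FPKM and CARS from 6.69 ± 0.20 to 12.4 ± 1.502 FPKM. Treated library 3 held 181 FPKM of SARS, and the mean of the other 2 was 94.1 FPKM. The tryptophanyl and isoleucyl synthetases fell in HepG2, WARS from 21.6 ± 0.43 to 6.77 ± 0.24 FPKM (limma adjusted p = 0.000104) and IARS from 48.9 ± 1.55 to 25.1 ± 0.63 FPKM (adjusted p = 0.000336). MARS, which overlaps DDIT3, also fell in HepG2.

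Of 12 tested targets in stress signalling, 11 were called higher in Huh7, where 16.4% of all tested genes were. CHAC1, which degrades glutathione, went from 4.56 ± 1.98 to 49.0 ± 27.9 FPKM, DDIT4, an inhibitor of mTORC1, from 27.2 ± 3.02 to 226 ± 93.7 FPKM, and the secreted factor INHBE from 0.476 ± 0.0912 to 10.5 ± 13.6 FPKM. The INHBE mean rests on treated library 3, at 26.2 FPKM, and the mean of the other 2 was 2.63 FPKM. For CHAC1 that library held 81.3 FPKM, against a mean of 32.9 FPKM in the other 2. For DDIT4 it was the lower one, at 118 FPKM against a mean of 279 FPKM. In HepG2 4 were called higher and EIF4EBP1, a repressor of cap-dependent translation named after its value was seen, lower. There 21% and 21.5% of all tested genes were called higher and lower, so the count of 1 lower is below that share. The angiogenic factor VEGFA rose from 31.2 ± 0.83 to 88.3 ± 3.12 FPKM (limma adjusted p = 3.19e-08), KLHL24 from 4.64 ± 0.07 to 11.7 ± 0.55 FPKM (adjusted p = 4.29e-07) and the lipoprotein receptor VLDLR from 3.58 ± 0.04 to 6.87 ± 0.39 FPKM (adjusted p = 1.21e-05). VEGFA and KLHL24 were also called higher in Huh7, with the change called larger in HepG2. CHAC1 in HepG2 stood at 1.08 ± 0.38 FPKM untreated and 0.470 ± 0.0601 FPKM treated. Its change of -0.48 ± 0.33 was not called. The SE rests on the spread shared by both lines, treated Huh7 included, and the log2(FPKM + 1) scale understates changes of low genes. The missing call of CHAC1 is therefore no sign of an unchanged level.

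The other zipper proteins that pair with ATF4, ATF3 or DDIT3 moved in both directions. In Huh7 4 of 10 were called higher and 3 lower, where 16.4% and 18.1% of all tested genes were. CEBPB went from 19.8 ± 1.95 to 56.8 ± 7.09 FPKM, JUN from 113 ± 3.35 to 450 ± 141 FPKM and JUND from 61.9 ± 1.93 to 114 ± 19.7 FPKM. Treated library 3 was the lowest of its group for JUN, at 302 FPKM, against a mean of 524 FPKM in the other 2. In HepG2 4 were called higher and 1 lower, where 21% and 21.5% of all tested genes were, so the count of 1 lower is below that share. JUND rose there from 117 ± 6.12 to 184 ± 9.05 FPKM (limma adjusted p = 0.000477) and FOS from 10.0015 ± 0.71 to 15.9 ± 1.48 FPKM (adjusted p = 0.00153), and JDP2 fell from 3.78 ± 0.52 to 2.10 ± 0.21 FPKM (adjusted p = 0.000378).

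PERK is also an arm of the unfolded protein response, so the arms run by ATF6, IRE1 and XBP1 were set beside it. Of 17 such genes 4 were called higher and 6 lower in Huh7, and 2 higher and 7 lower in HepG2. The counts of higher genes, 4 and 2 of 17, are near or below the 16.4% and 21% of all tested genes called higher. The counts of lower genes, 6 and 7 of 17, are above the 18.1% and 21.5% of all tested genes called lower. The median changes of the 17 were -0.31 in Huh7 and -0.24 in HepG2. ERN1, which encodes IRE1, went from 2.43 ± 0.13 to 4.805 ± 0.39 FPKM in Huh7 and from 1.18 ± 0.13 to 3.09 ± 0.18 FPKM in HepG2 (limma adjusted p = 4.87e-06). XBP1 was called higher in Huh7, from 52.8 ± 2.02 to 130 ± 73.5 FPKM. Treated library 3 held 214 FPKM of XBP1, and the mean of the other 2 was 87.4 FPKM. The chaperone cofactor SDF2L1 went from 75.1 ± 2.35 to 46.3 ± 7.66 FPKM in Huh7 and from 48.7 ± 5.57 to 13.9 ± 1.78 FPKM in HepG2 (adjusted p = 2.31e-06), while the co-chaperone DNAJB9 rose in HepG2 from 4.06 ± 0.22 to 8.17 ± 0.70 FPKM (adjusted p = 0.00716). The main chaperone of this compartment, HSPA5, named after its values were seen, stood at 221 ± 8.61 and 170 ± 127 FPKM in Huh7 and 198 ± 7.40 and 105 ± 1.32 FPKM in HepG2 and was called in neither line (HepG2 adjusted p = 0.0613). Treated Huh7 library 3 held 317 FPKM of HSPA5, above the untreated mean, and the mean of the other 2 was 96.8 FPKM, below it. The HepG2 change of HSPA5 was -0.91 ± 0.36, and its SE rests on the spread shared by both lines, this library included. The missing call in HepG2 is therefore no sign of an unchanged level. Of 6 genes of mitochondrial protein quality control 1 was called higher and 2 lower in Huh7. The shares of all tested genes there were 16.4% and 18.1%, and the count of 1 higher is near that share. In HepG2 5 of the 6 were called lower, where 21.5% of all tested genes were. The mitochondrial chaperonin HSPD1 went from 270 ± 3.91 to 133 ± 24.0 FPKM in Huh7 and from 151 ± 2.65 to 87.7 ± 0.48 FPKM in HepG2 (adjusted p = 0.000167).

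Likeness of pattern was described by Pearson's r of log2(FPKM + 1) over the 12 libraries after the mean of each line was subtracted. All points share the treatment contrast and the same libraries, so no p is given. Among the members, CEBPG and ATF3 were most alike (0.988), followed by CEBPG with TRIB3 (0.956), ATF3 with TRIB3 (0.949) and EIF2AK3 with PPP1R15A (0.947). EIF2AK4 ran against EIF2AK3 (-0.867) and PPP1R15A (-0.916). The protein-coding genes most like ATF3 were CECR2 (0.991), CREB5 (0.990), DUSP16 (0.989), KCNC1 (0.989) and its fellow ATF4 target ASNS (0.989). Those most like DDIT3 were TCF19 (0.993), GTF2IRD1 (0.985), NPDC1 (0.985), TLE2 (0.984) and LCA5 (0.983), and among those most like ATF4 were WDR45 (0.972), HSF2 (0.961), PHPT1 (0.960) and TERF2IP (0.958). Of the genes like ATF3, CECR2, CREB5 and KCNC1 had HepG2 group means of at most 0.0536 FPKM. Their r therefore rests mostly on the Huh7 libraries.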

How the data were processed

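Poly-T capture and random hexamer priming were used for the libraries, per the labels' protocols, and no step records strand. CASAVA, fastp and hg38 come from the submitters' processing notes, and for alignment and counting no tool is named there. The deposited table holds FPKM computed by the authors. Multiplied by gene length and divided by the value of 1 fragment in that library, 100% of values were whole within 0.05 fragments. The labels do not say that libraries of a group are separate cultures, so p-values measure the spread between these libraries, which may be technical.

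One model of 4 group means was fitted with limma 3.58.1 (R 4.3.3) to log2(FPKM + 1) in 12 libraries (8 residual degrees of freedom, moderated variance with trend, two-sided, Benjamini-Hochberg over 15518 genes with 1 FPKM in at least 3 libraries). The scale understates changes of low genes. The members, the lists (99 symbols, 12 matched by older names) and the tests were chosen with earlier results of these data known. Named genes are the members, up to 3 called list genes per list and line by size of change, and the 5 genes most like ATF3, ATF4 and DDIT3, of which 1 is not reported here. The fit was tested on simulated data. Replicate numbers were not used to pair libraries in the main fit. Same-numbered deviations correlated by -0.061 to 0.020 and differently numbered ones by -0.047 to 0.072. With 3 libraries in each group this cannot show that libraries are unpaired. Counting intervals are not given, since the labels mention no molecular identifiers. Alternatives covered pseudocount, filter, scaling, voom, single lines, a replicate block and each library left out.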

Additional observations from a re-analysis of the deposited data

Results flagged for a closer look

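The limma contrast of the geniposide effects (HepG2 minus Huh7, log2(FPKM + 1)) was called for 5 of the 10 members and for 27.8% of all tested genes. It holds the Huh7 rise by which the members were chosen, so these values are a description and no independent evidence that the lines differ. The values were -3.16 for ATF3, -2.14 for TRIB3, -1.43 for DDIT3, -1.40 for NUPR1 and -1.37 for CEBPG. ATF3 and CEBPG were called in Huh7 with overlapping groups in HepG2. DDIT3 was called higher in both lines and by more in Huh7. TRIB3 and NUPR1 were called higher in Huh7, while in HepG2 every treated library was below every untreated one. The part of treated Huh7 library 3 is seen in the values without it, -2.76, -1.79, -1.43, -0.90 and -1.26 in the same order.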

How the results depend on the processing

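Of the 10 members 8 were called in Huh7, 5 with the line fitted alone, and 5 to 9 with 1 library left out. In HepG2 3 were called, 7 with the line fitted alone, and 1 to 7 with 1 library left out. The replicate block within each line left 1 call in HepG2. It also ended the calls of EIF2AK4 in Huh7 and of NUPR1 in both comparisons of lines, and changed no other member call. EIF2AK3, EIF2AK4 and NUPR1 were the Huh7 calls lost with the line alone, and each was also lost without some untreated Huh7 library. After the data were seen, Huh7 was fitted alone without treated library 3, and 8 members were called. Over single members, 701 values under the alternatives kept direction and call, 49 lost the call, 21 gained it and 11 changed sign. The changes of sign were of uncalled values near 0. CEBPG in HepG2 was 0.014 with TPM scaling. DDIT3 between the untreated lines was -0.11 with TPM scaling and -0.12 with voom, ATF5 there -0.000252 with voom, and the line difference of EIF2AK4 -0.021 with voom. With 1 library left out the line difference ranged from -0.087 to 0.073 for ATF4 and from -0.051 to 0.076 for EIF2AK4. The ATF4 targets called numbered 37 to 42 in Huh7 and 25 to 36 in HepG2 with 1 library left out, and 27 and 37 with each line fitted alone. Over all genes 5357 were called in Huh7 and 3266 with the line alone. The share of Huh7 calls that were higher was 47.5%, 61.6% with TPM scaling, 60.9% with voom and 38.8% with a filter of 5 FPKM. DDIT3 rests on the fewest fragments of the members, 58 in its lowest library. The cause of these shifts was not tested.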
